A study of Mus musculus with 12 samples.

Results

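The genes described here are 62 genes with names of the membrane traffic machinery, measured in oocytes of aged and young mice. They were taken by name: every probe of the array whose platform annotation lists exactly 1 gene symbol, where that symbol is a Rab, Arf, Arl, Tbc1d, Snx, Vps, Sec, Cop, AP adaptor, Stx, Vamp or Trappc name, with Rab5if left out. This gave 83 of the 4262 single-gene probes and 62 of the 3089 named genes, and the rule itself uses no measured value. Probes of 1 gene were averaged, and all 62 genes had a value in every replicate, so none was lost to a filter.

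The samples were 12 arrays with 2 dyes each, every one carrying RNA from aged oocytes in one dye and RNA from young oocytes in the other. They held 3 pairs of RNA extracts: aged RNA 1 with young RNA 1, aged RNA 2 with young RNA 5, and aged RNA 3 with young RNA 2, called pairs 1, 2 and 3 here. The 4 arrays of a pair came from 2 labellings with the dyes both ways round and were counted as 1 replicate (n = 3). The sources used here state no age in weeks, strain, oocyte stage, number of animals or treatment. Since nothing says that the RNAs came from separate animals, the tests measure the spread between 3 pairs of extracts, which may be technical.

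Eukaryotic cells move proteins between compartments in coated vesicles. COPII coats carry cargo out of the endoplasmic reticulum, COPI coats carry it back, and clathrin adaptors act at the Golgi and on endosomes. Small GTPases of the Rab, Arf and Arl families mark each membrane, tethers such as TRAPP hold an arriving vesicle, and SNARE proteins fuse it. Sorting nexins and retromer recycle cargo from endosomes, while ESCRT proteins send it to lysosomes. The mouse oocyte uses this machinery to secrete the zona pellucida, to store and release its cortical granules, and to move actin-bearing Rab11a vesicles that help to position the spindle.

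Each value below is the base 2 logarithm of aged over young, with the median of its array set to 0. A value of 1 is a doubling and a value of -1 a halving. The direction is assumed and not settled, because no source used here says which dye stands on top of the deposited ratio. Cy5 over Cy3 was assumed, a common convention, and with the opposite one every sign below turns. If the values were already turned to aged over young, sizes, gene lists and many signs would change. A ratio gives no level, so neither the oocyte origin of the RNA nor the abundance of any gene could be checked. In bulk RNA, fewer cells of a type and less RNA per cell cannot be told apart.

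Among the 62 traffic genes no common direction was seen with age: 33 had a mean ratio above 0 and 29 below, and their median was 0.02, beside 0.00 over all 3089 named genes. Values were small, with a median size of 0.14 regardless of sign, against 0.15 over named genes, and 20 genes lay within 0.1 of 0. None of the 62 passed the test. Over the whole table limma called 0 of 21370 rows (0%) with Benjamini-Hochberg adjustment at 0.05, and Sec61a1 had the lowest adjusted p of the traffic genes, 0.631. Before adjustment, 6 of the 62 (9.68%) had a p under 0.05: 5 lower in aged oocytes (8.06%, against 3.77% of all rows and 5.34% of named genes) and 1 higher (1.61%, against 2.78% and 2.33%). The 6 are Stx7, Rab7, Trappc2, Rab11a and Rab14 on the lower side and Sec61a1 on the higher. With the deposited values read as already turned to aged over young, 17 members stood at that level instead, and only Sec61a1 was in both sets. Without pair 2 the count was 2 (Sec61a1 and Trappc2), and without pair 1 or pair 3 it was 4, with Sec61a1 and Stx7 in both. The shares of all rows at that level, with that reading or without a pair, are not given here. These counts therefore say nothing particular to the traffic genes. A single sign through pairs 1 to 3 was found for 19 of the 62 genes (30.6%), near the 32.7% of named genes, 11 of them lower and 8 higher. The 95% intervals of the means reached a median of 0.39 to either side, and for 58 of the 62 genes they lay within a doubling and a halving.

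**Figure D1:**
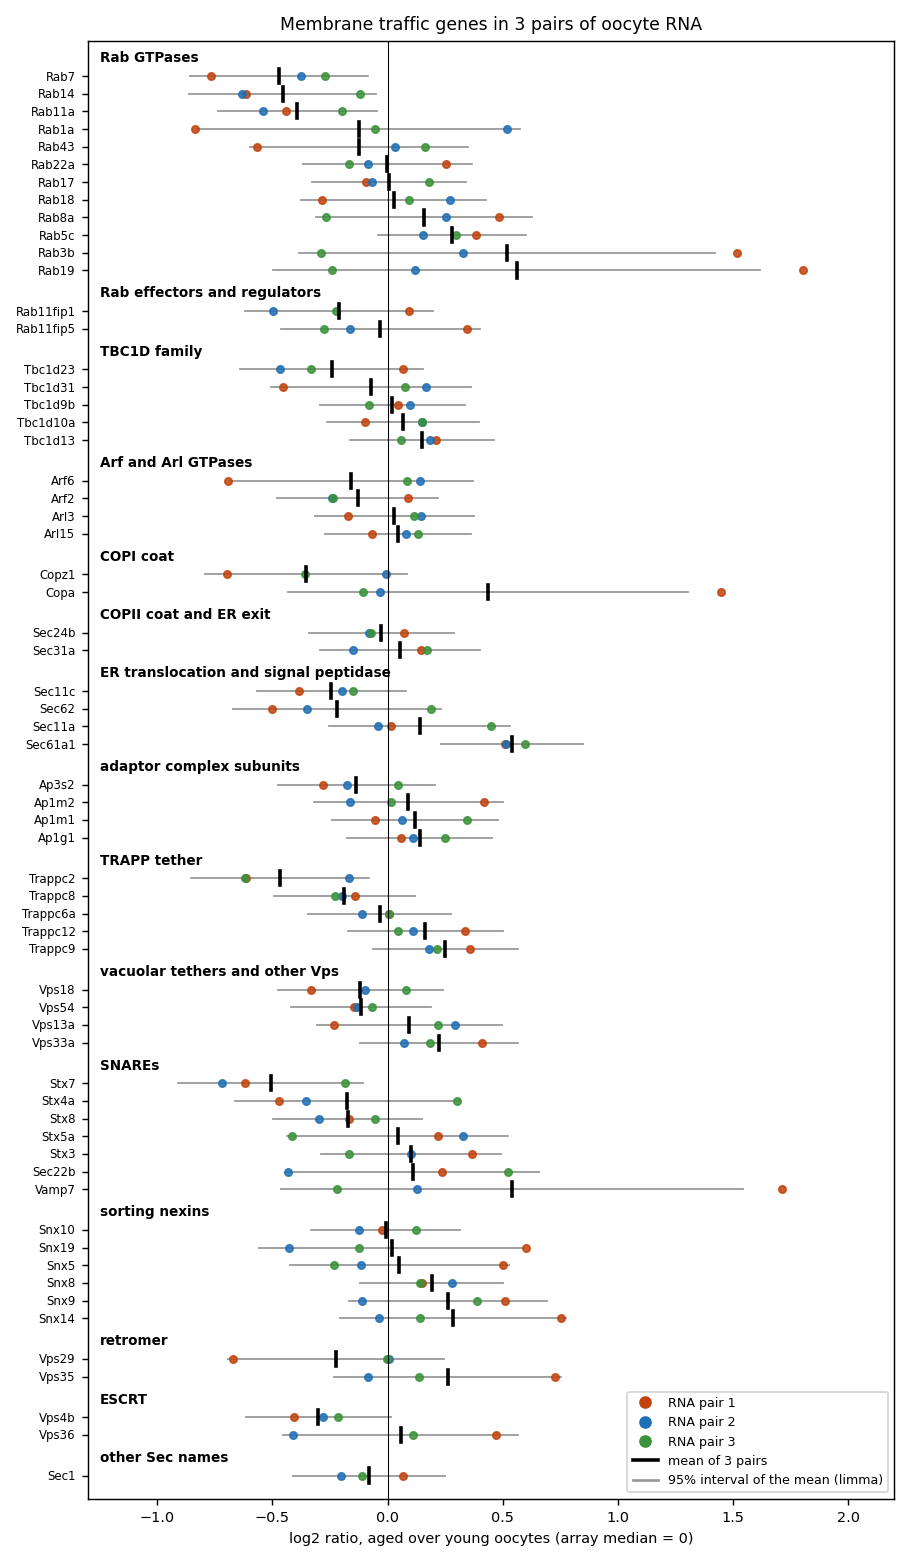
Log2 ratio of aged over young oocytes (horizontal axis) for each of the 62 genes, grouped by role; dots are the 3 RNA pairs, the black bar is their mean and the grey line its 95% interval from limma. Most means lie near 0, and the dots of pair 1 for Rab3b, Rab19, Vamp7 and Copa stand far to the right of the other 2 pairs.

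The lower members on that list belong to endosomes and to the tether of the early secretory route. Stx7, a SNARE of late endosome fusion, lay at -0.62, -0.72 and -0.19 in pairs 1, 2 and 3. All 3 pairs were below 0, and 10 of the 12 arrays were, from -1.39 to 0.10 with a median of -0.40. The mean of -0.51 ± 0.28 (SD, n = 3) is a level 1.42-fold lower in aged oocytes, with an interval from -0.91 to -0.11 and a limma adjusted p = 0.716. Its pair of probes gave means of -0.53 and -0.49, but they differed within RNA pairs. Over pairs 1, 2 and 3 one probe read -0.95, -0.48 and -0.15, and the other -0.29, -0.96 and -0.22.

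Rab7, the GTPase that takes late endosomes to the lysosome, lay at -0.77, -0.38 and -0.27, below 0 in every pair and on 11 of the 12 arrays. The arrays ran from -1.90 to 0.51 with a median of -0.30, both ends being in pair 1. Its mean was -0.47 ± 0.26 (SD, n = 3), with an interval from -0.86 to -0.08 and a limma adjusted p = 0.716. Rab11a, the GTPase of recycling endosomes, lay at -0.44, -0.54 and -0.20. It was below 0 on 11 of 12 arrays, from -1.04 to 0.06, and its probes gave -0.43 and -0.36, so pairs, probes and nearly all arrays shared a sign. The mean was -0.39 ± 0.18 (SD, n = 3; interval from -0.74 to -0.05, limma adjusted p = 0.716).

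Rab14, which acts between the Golgi and early endosomes, lay at -0.62, -0.63 and -0.12, with a mean of -0.46 ± 0.29 (SD, n = 3; limma adjusted p = 0.716). The single probe was below 0 on 11 of 12 arrays, but the pair 1 arrays spanned -1.97 to 1.46, and with all arrays scaled to one spread its mean was -0.28, with an unadjusted p no longer under 0.05. Trappc2, a core subunit of the TRAPP tether that receives vesicles from the endoplasmic reticulum, lay at -0.61, -0.17 and -0.62. It was below 0 on 10 of 11 arrays, since 1 array of pair 1 gave no value and that pair rests on the other 3. Its mean was -0.47 ± 0.26 (SD, n = 3; limma adjusted p = 0.716).

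Sec61a1, the pore subunit of the channel that passes new proteins into the endoplasmic reticulum, was the one member on the higher side. It lay at 0.51, 0.51 and 0.60, the pairs being within 0.09 of each other, and above 0 on 11 of 12 arrays, from -0.08 to 1.42. The mean of 0.54 ± 0.05 (SD, n = 3) is a level 1.45-fold higher in aged oocytes, with an interval from 0.23 to 0.85. With limma's shared variance, which widens the error of a gene whose 3 values happen to lie close together, its adjusted p = 0.631.

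The 6 genes were also read in each dye orientation alone. With aged RNA in Cy3 only, Stx7 lay at -0.81, Rab7 at -0.84, Rab11a at -0.58, Rab14 at -0.87, Trappc2 at -0.66 and Sec61a1 at 0.87. With it in Cy5 only the same genes lay at -0.21, -0.10, -0.20, -0.04, -0.28 and 0.21. The sign held in both orientations for the 6 genes, and each was nearer to 0 with aged RNA in Cy5. The 6 were picked on the mean of these same orientations, so the shared sign is no separate support. With aged RNA in Cy5 only, 5 members had an unadjusted p under 0.05 in limma, and 0 of them were among the 6. In a test of the dye effect, described further on, Stx7 passed (adjusted p = 0.0380), Sec61a1, Rab7, Rab11a and Rab14 did not, and Trappc2 could not be tested. Read as already turned to aged over young, the values take the opposite sign: 0.30, 0.37, 0.19, 0.41 and 0.19 for the 5 lower genes and -0.33 for Sec61a1.

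**Figure D2:**
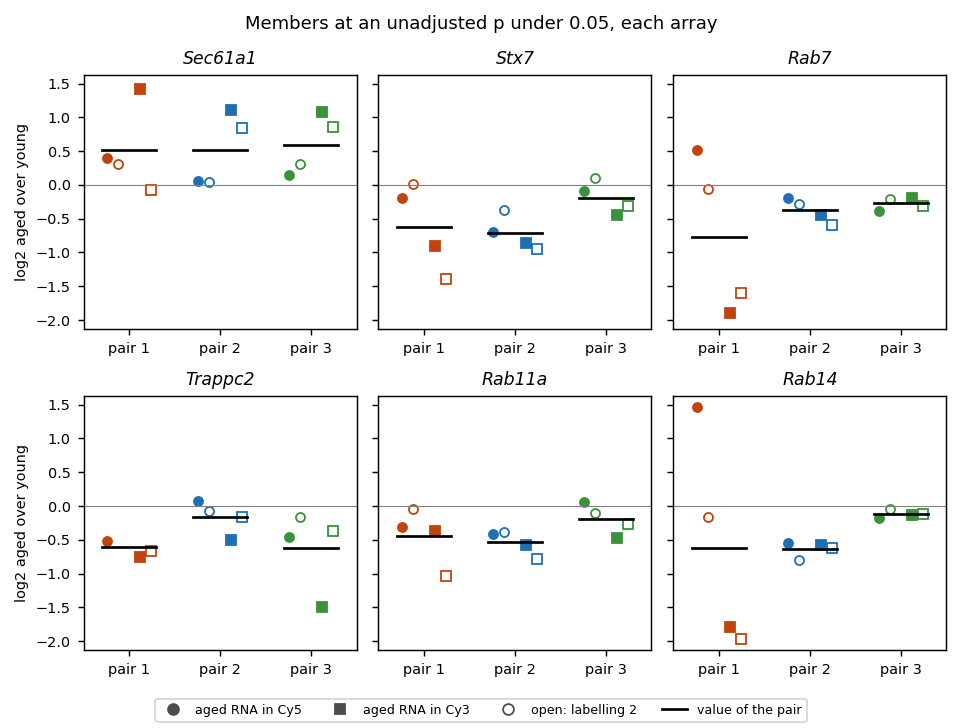
Log2 ratio of aged over young (vertical axis) on each array for the 6 members at an unadjusted p under 0.05, by RNA pair; circles have aged RNA in Cy5 and squares in Cy3, open symbols are labelling 2, and the bar is the value of the pair. The squares lie farther from 0 than the circles in most panels, and pair 1 spreads most for Rab7 and Rab14.

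The region just before the transcription start was read for the 5 lower members, to show these genes in sequence. Members at an unadjusted p under 0.05 were taken, and Sec61a1, the higher one, had no promoter entry. The 5 were picked on their age ratios, so their common sign is no evidence of a common promoter feature. RefSeq (GRCm38.p6) gave a start for 50 of the 62 members, and the 250 bases before the first one listed were searched on both strands for 3 short motifs. These were the CCAAT box (CCAAT), the GC box (GGGCGG) and the E-box (CACGTG), the last of which lies at the centre of the element that many lysosomal genes carry. The sequences are written 5′ to 3′ on the strand of the gene, with motif letters in capitals (a motif on the other strand reads as CCGCCC or ATTGG). They lie at chr10:24149039-24149288 on the plus strand for Stx7, chr6:88045271-88045520 on the minus strand for Rab7, chr9:64737757-64738006 on the minus strand for Rab11a, chr2:35201121-35201370 on the minus strand for Rab14 and chrX:166440505-166440754 on the plus strand for Trappc2.
Stx7: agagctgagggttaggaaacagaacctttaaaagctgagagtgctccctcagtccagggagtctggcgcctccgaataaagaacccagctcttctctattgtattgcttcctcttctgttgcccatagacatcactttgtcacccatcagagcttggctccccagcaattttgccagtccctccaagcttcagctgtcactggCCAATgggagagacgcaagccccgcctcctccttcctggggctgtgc
Rab7: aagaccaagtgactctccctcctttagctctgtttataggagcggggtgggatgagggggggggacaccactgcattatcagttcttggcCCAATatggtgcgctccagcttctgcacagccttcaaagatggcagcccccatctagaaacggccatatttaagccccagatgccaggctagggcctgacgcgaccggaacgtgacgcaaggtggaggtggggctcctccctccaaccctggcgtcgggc
Rab11a: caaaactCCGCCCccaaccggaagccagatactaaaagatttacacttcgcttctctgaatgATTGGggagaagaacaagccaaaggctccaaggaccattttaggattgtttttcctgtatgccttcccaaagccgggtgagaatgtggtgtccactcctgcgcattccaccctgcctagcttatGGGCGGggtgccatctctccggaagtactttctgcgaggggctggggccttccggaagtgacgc
Rab14: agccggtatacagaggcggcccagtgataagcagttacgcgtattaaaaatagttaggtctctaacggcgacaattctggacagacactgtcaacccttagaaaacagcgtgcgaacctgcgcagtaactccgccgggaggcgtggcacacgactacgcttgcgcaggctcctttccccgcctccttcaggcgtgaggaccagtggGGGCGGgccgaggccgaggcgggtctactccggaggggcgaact
Trappc2: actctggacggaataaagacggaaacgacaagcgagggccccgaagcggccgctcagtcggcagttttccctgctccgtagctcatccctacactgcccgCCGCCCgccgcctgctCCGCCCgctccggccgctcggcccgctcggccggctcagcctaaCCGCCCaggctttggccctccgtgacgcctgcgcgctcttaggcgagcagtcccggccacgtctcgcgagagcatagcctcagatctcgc

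A CCAAT box lay 47 bases before the start in Stx7, 160 in Rab7 and 188 in Rab11a. GC boxes lay in Rab11a (243 and 64 bases before the start), Rab14 (44) and Trappc2 (150, 134 and 90). No E-box letters occurred in these 5 windows, and neither other motif was in all 5. Over the 50 members with a window, 18 (36%) held a CCAAT box, 33 (66%) a GC box and 6 (12%) an E-box. The same shares were 34.5%, 32.9% and 6.05% of all 27025 genes with a promoter, and 35.4%, 60.9% and 8.64% of the 2500 named genes of the array with one. These matches are descriptions of letters only.

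Of 12 Rab GTPases, 6 lay above 0 and 6 below, with a median of 0.00. Besides the 3 lower ones, Rab5c, of early endosomes, lay at 0.38, 0.16 and 0.30 (mean 0.28 ± 0.12, SD, n = 3), the one Rab above 0 in every pair. It changed sign with the dye, at -0.09 with aged RNA in Cy5 and 0.65 in Cy3. It also passed the limma dye test described further on (adjusted p = 0.0486), and its probe shared with Ghdc lay at -0.04. Both effectors of Rab11 lay below 0 in mean, Rab11fip1 at -0.21 ± 0.30 and Rab11fip5 at -0.03 ± 0.33 (SD, n = 3 each), but pair 1 was above 0 for each of them. Both changed sign with the dye. With aged RNA in Cy5 and in Cy3, Rab11fip1 read 0.345 and -0.764, and Rab11fip5 -0.401 and 0.337. The probes of Rab11fip1 lay at -0.36 and -0.06.

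The TBC1D family, most of whose members switch Rabs off, had 3 of 5 above 0 and none beyond 0.25 in size. Tbc1d23, an adaptor of vesicle capture at the trans-Golgi, lay at -0.24 ± 0.28, Tbc1d13 at 0.15 ± 0.08 and Tbc1d10a at 0.07 ± 0.14 (SD, n = 3 each). Tbc1d13 had 1 sign in the 3 pairs, although its arrays ran from -1.04 to 2.47. It changed sign with the dye, at 0.52 with aged RNA in Cy5 and -0.22 in Cy3. Of the Arf and Arl GTPases, 2 of 4 lay above 0. Arf6, which acts at the plasma membrane, lay at -0.69, 0.14 and 0.08, Arf2, a Golgi Arf, at -0.13 ± 0.19, and Arl15 at 0.05 ± 0.10.

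The coats gave 1 gene on each side. Copa and Copz1, the alpha and zeta subunits of COPI, are parts of one complex but lay at 0.43 ± 0.88 and -0.35 ± 0.34 (SD, n = 3 each). Copa stood at 1.45 in pair 1 and at -0.04 and -0.11 in pairs 2 and 3, while Copz1 stood at -0.70, -0.01 and -0.36. In COPII, Sec31a of the outer coat lay at 0.05 ± 0.18 and Sec24b, which picks cargo, at -0.03 ± 0.08, from probes at -0.22 and 0.17. Of the AP-1 adaptor, the 3 measured subunits lay above 0: Ap1g1 at 0.14 ± 0.10, Ap1m1 at 0.12 ± 0.21 and Ap1m2 at 0.09 ± 0.30. All 3 changed sign with the dye. With aged RNA in Cy5 and in Cy3, Ap1g1 read -0.23 and 0.51, Ap1m1 0.42 and -0.19, and Ap1m2 -0.73 and 0.91. Their probes shared with another gene lay at -0.108, -0.037 and -0.525 in the same order. Ap3s2, of the AP-3 adaptor, lay at -0.14 ± 0.17.

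At the entrance to the secretory route, Sec61a1 and Sec11a had means above 0 and Sec62 and Sec11c below. Sec62, a partner of the same channel, lay at -0.50, -0.35 and 0.19. Sec11c, a catalytic subunit of the signal peptidase, lay at -0.38, -0.20 and -0.15 and was below 0 on 12 of 12 arrays, the only member with 1 sign on every array. Its mean was -0.25 ± 0.12 (SD, n = 3; limma adjusted p = 0.716), while Sec11a, the other catalytic subunit, lay at 0.14 ± 0.27.

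The TRAPP tether was split, with 2 of 5 subunits above 0 in all 3 pairs and 2 below 0 in all 3. Below were Trappc2, given above, and Trappc8, at -0.14, -0.20 and -0.23 (mean -0.19 ± 0.04, SD, n = 3). Above were Trappc9, at 0.36, 0.18 and 0.21 (mean 0.25 ± 0.09), and Trappc12, at 0.34, 0.11 and 0.05 (mean 0.16 ± 0.15). The pair 1 value of Trappc12 rests on 1 array, since its arrays of that pair lay at -0.43, -0.25, -0.10 and 2.12. Only 6 of its 12 arrays were above 0, against 10 for Trappc9. The close pairs of Trappc8 hid a wide gap between its 3 probes, at 0.04, -0.14 and -0.47, the largest among the members. Of the tethers of endosomes and the Golgi, Vps33a, which steers SNARE pairing at late endosomes, lay at 0.22 ± 0.17, Vps18, of the same tether, at -0.12 ± 0.21, and Vps54, of the GARP tether, at -0.12 ± 0.04 with its 3 probes between -0.19 and -0.07. In single pairs those Vps54 probes ran from -0.31 to 0.14.

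Of the 7 SNAREs, 4 lay above 0 and 3 below. Stx8, the partner of Stx7 in late endosome fusion, lay at -0.17, -0.30 and -0.05, with 10 of 12 arrays below 0. Vamp7, a SNARE of late endosomes and lysosomes, lay at 1.71, 0.13 and -0.22. Its mean of 0.54 rests on pair 1: without that pair it was -0.05, from pairs on opposite sides of 0. Stx4a, a SNARE of the plasma membrane, lay at -0.47, -0.35 and 0.30, with probes at -0.05 and -0.30.

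On the recycling side 5 of the 6 sorting nexins lay above 0, with a median of 0.12, while 49.9% of all named genes lay below 0. Of these nexins, Snx5, Snx8, Snx14 and Snx19 had opposite signs in the dye orientations, and Snx9 kept its sign. Snx8 lay at 0.15, 0.28 and 0.14, the one nexin above 0 in every pair, Snx9, which helps to bend the membrane in endocytosis, at 0.26 ± 0.33, and Snx14 at 0.28 ± 0.41 (SD, n = 3 each). The retromer subunits stood apart, Vps35 at 0.73, -0.09 and 0.14 and Vps29 at -0.67, 0.00 and -0.00. In the ESCRT group Vps4b, the ATPase that takes the complex apart, lay at -0.41, -0.28 and -0.21 (mean -0.30 ± 0.10, SD, n = 3; limma adjusted p = 0.716) from probes at -0.50 and -0.10. Vps4b changed sign with the dye, at 0.08 with aged RNA in Cy5 and -0.68 in Cy3. Vps36, of ESCRT-II, lay at 0.47, -0.41 and 0.11. Sec1, a fucosyltransferase that shares only its name with the Sec genes, lay at -0.08 ± 0.14. The members given no value of their own in the text had means from -0.13 (Rab43) to 0.16 (Rab8a).

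The pairs did not move alike. Pair 1 held the value farthest from 0 in 36 of the 62 genes, pair 2 in 15 and pair 3 in 11, and the median size regardless of sign was 0.36, 0.17 and 0.17, against 0.28, 0.16 and 0.15 over all named genes. The arrays of pair 1 also had the widest spread over all probes, with an SD of 0.79 to 1.23 on the log2 scale against 0.39 to 0.77 in the others. The part of that spread in the members' values was not tested. Across the 62 genes the ratios of pairs 1 and 2 correlated at r = 0.24, those of pairs 2 and 3 at 0.22 and those of pairs 1 and 3 at -0.01, as a description over genes, which are not independent. Over the 3089 named genes the same correlations were 0.19, 0.19 and 0.24.

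A limma test among pairs on the 12 arrays, with the dye orientation in the model, asked which genes differed between RNA pairs by more than arrays of 1 pair did. It called 4 of the 60 members with a value on every array (6.67%, against 6.25% of all rows), and Sec22b and Trappc2 could not be tested. The 4 were Rab3b (adjusted p = 0.0132), Rab19 (0.0203), Rab1a (0.0264) and Vamp7 (0.0317). Rab3b, of regulated secretion, lay at 1.52, 0.33 and -0.29 and Rab19 at 1.81, 0.12 and -0.24, both far above in pair 1. Rab1a, which guides vesicles from the endoplasmic reticulum to the Golgi, ran the other way in pair 1, at -0.84, 0.52 and -0.06. Its 4 arrays of pair 1 lay between -1.33 and -0.36 and its 4 arrays of pair 2 between 0.28 and 0.78, without overlap. With arrays scaled to one spread 1 member was called, and without pairs 1, 2 and 3 in turn the count was 2, 1 and 0, from 8 arrays each.

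Rab3b, Rab19, Vamp7 and Copa followed each other over the arrays. The correlations over the 12 arrays ran from 0.84 (Rab3b with Copa) to 0.98 (Rab19 with Vamp7). Their highest arrays were those of pair 1 with aged RNA in Cy5: Rab3b at 2.24 and 2.57, Rab19 at 3.39 and 2.58, Vamp7 at 3.35 and 2.83, and Copa at 4.13 and 2.08. The opposite orientation of pair 1 gave 0.07 and 1.19, 0.01 and 1.24, 0.08 and 0.59, and -0.58 and 0.16 in the same order. In pairs 2 and 3 the 4 genes stayed between -0.43 and 0.78. Of the 3026 named genes with a value on all arrays, 53 others (1.75%) correlated with Rab3b above 0.9. Each of the 4 genes rests on 1 probe, and the group was picked after its values were seen.

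**Figure D3:**
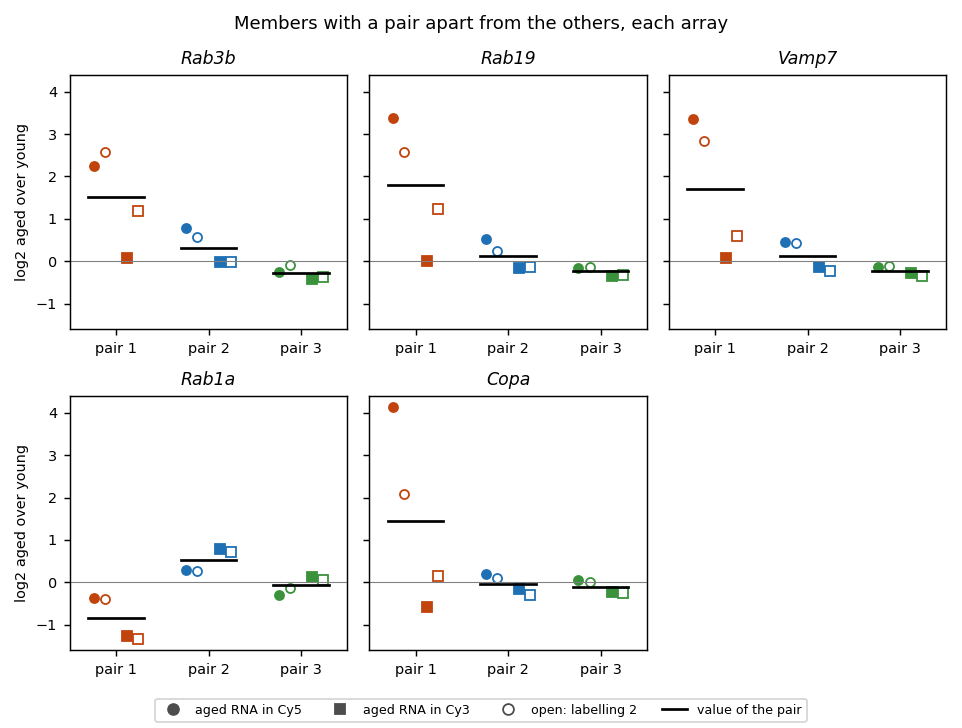
Log2 ratio of aged over young (vertical axis) on each array for the 4 members that differed among RNA pairs and for Copa; symbols as circles (aged RNA in Cy5), squares (aged RNA in Cy3) and open (labelling 2), with a bar for the value of the pair. The pair 1 circles of Rab3b, Rab19, Vamp7 and Copa reach from 2.08 to 4.13, while Rab1a is below 0 on all 4 arrays of pair 1.

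The dyes were compared next. The part of a value that keeps its sign when the dyes are swapped was tested with limma on the 12 arrays, with the pair in the model, and it passed for 17 of 60 members (28.3%, against 24.1% of all rows), 8 brighter in Cy5 and 9 in Cy3. It was larger in size than the age ratio in 38 of the 60. If the deposited values are already aged over young, this part is the age ratio, and the age ratios given here are the dye part. Which dye is named brighter also rests on the assumed Cy5 over Cy3. Snx5, a nexin of endosome recycling, had the smallest p, with a dye effect of -0.74 (adjusted p = 0.00347) beside an age ratio of 0.05 ± 0.39. Ap1m2 had -0.82 (adjusted p = 0.00732) beside an age ratio of 0.09, and Snx14 had 0.52 (adjusted p = 0.0122) beside 0.28. With aged RNA in Cy5 Snx5 read -0.69, and with it in Cy3 0.79. Over the 62 genes the means of the 2 orientations had the same sign in 24 and opposite signs in 38, and correlated at r = -0.28. In a balanced swap the signs oppose where the dye part is larger than the age ratio, so this restates the count of 38 above. The same count and correlation over all named genes are not given here, so neither is read as a trait of the traffic genes. The balanced swap cancels a dye effect that is the same on every array, and any remainder in the age ratios was not tested. Without pair 2 or pair 3 no member passed the dye test, which then rests on 8 arrays, and without pair 1 16 did.

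**Figure D4:**
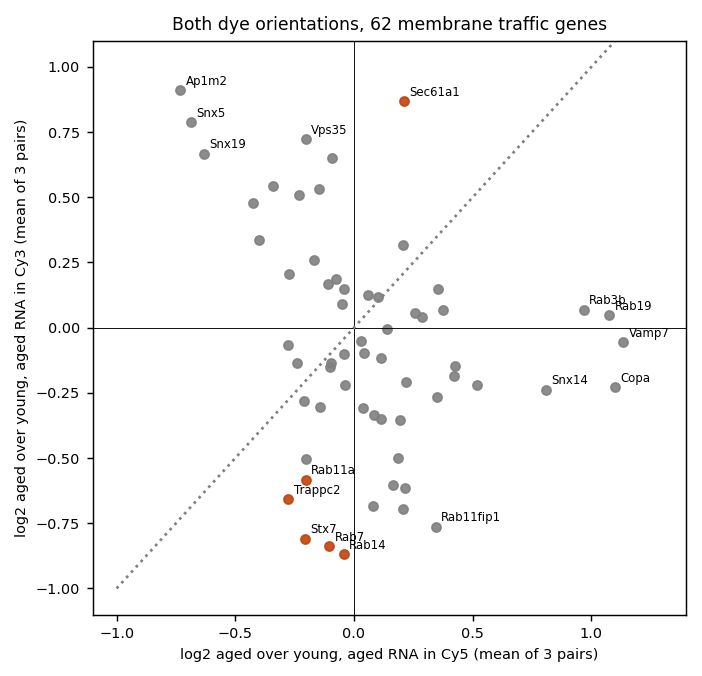
Each point is 1 of the 62 genes, with the log2 ratio of aged over young from arrays with aged RNA in Cy5 (horizontal axis) and in Cy3 (vertical axis), means of 3 RNA pairs; red points are the 6 members at an unadjusted p under 0.05 and the dotted line marks equal values. The 38 points in the upper left and lower right of the plot change sign with the dye, and Snx5, Snx19 and Ap1m2 lie far from the line.

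How far a single probe can be trusted was read from genes with more than 1. There were 18 such members, and the other 44 rest on 1 probe. All probes had the same sign in 10 of the 18 (55.6%), with a median gap between the highest and lowest of 0.23. Rab11a, Stx7, Vps54 and Trappc12 were among those whose probes agreed in sign, while Rab1a (0.12 and -0.37), Vps36 (-0.11 and 0.22), Sec24b and Trappc8 were not. The first 2 probes correlated at r = 0.32 over the 18 genes. Another 61 probes list one of 36 members together with another gene, and 32 of these had the sign of the member's mean. For Rab14 such a probe, shared with Stom, lay at -1.23, -0.09 and 0.23 in pairs 1, 2 and 3, a mean of -0.36. With shared probes counted, Rab14 had an unadjusted p of 0.11 in limma. For Copa the shared probes lay at -0.30, 0.08 and 0.49. For Trappc2 they lay at -0.46, -0.37, 0.04 and 0.14, and with them counted its mean was -0.22.

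**Figure D5:**
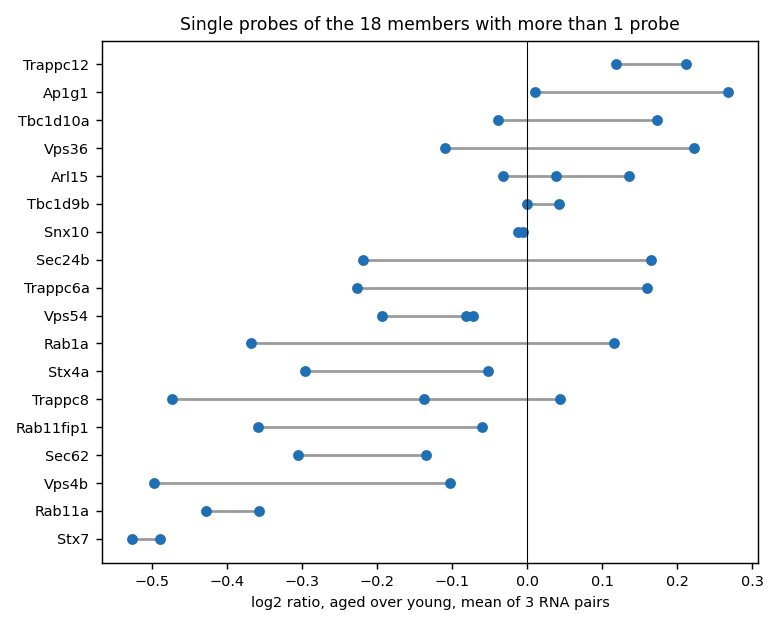
Log2 ratio of aged over young (horizontal axis, mean of 3 RNA pairs) for each single probe of the 18 members with more than 1 probe; a grey line joins the probes of a gene. The probes of Stx7, Rab11a and Snx10 lie close together, and those of Trappc8 span 0.52.

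Other genes of the traffic machinery, from a list of 168 that the name rule does not cover, gave no call either. Of the 44 measured, 16 lay above 0 and 28 below, with a median of -0.04, and 0 had an adjusted or unadjusted p under 0.05 in limma. The smallest p values were those of Rabac1, a Rab acceptor of the Golgi, at 0.37 ± 0.33, Scfd2 at -0.33 ± 0.27, and Use1, a SNARE of the endoplasmic reticulum, at -0.49 ± 0.56 (SD, n = 3 each). After them came Golga4, a golgin tether, at 0.33 ± 0.39, Sort1, a sorting receptor, at 0.23 ± 0.15, and Ergic2, which cycles between the endoplasmic reticulum and the Golgi, at -0.30 ± 0.38. Without pair 1 the count at an unadjusted p under 0.05 was 4, and without pair 2 it was 2.

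Markers of other ovarian cells were thinly covered by single-gene probes. Of 20 cumulus and granulosa cell markers 4 were measured, 3 of them below 0, with pair medians of 0.06, -0.21 and -0.05. Of 17 blood and immune cell markers 4 were measured, 3 of them above 0, with pair medians of 0.28, 0.16 and 0.14, and H2-Aa, an antigen-presentation gene, at 0.37 ± 0.12. Of 12 stromal and endothelial markers only Pecam1 was measured, at -0.15 ± 0.15 (SD, n = 3 each). At an unadjusted p under 0.05, the level used for the 6 members, H2-Aa was the 1 marker of the 9 measured. None had an adjusted p under 0.05 in limma, and the part of other cells in the traffic genes' ratios was not tested.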

How the data were processed

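The deposited table gave a value per probe and array for 22575 probes. The authors' values were taken as log10 ratios of the 2 channels, from their sign and their limits at -2 and 2; the sources used here do not state scale, centring, direction, scanner software, background correction or dye normalization. Array medians on the log10 scale ran from -0.316 to 0.0501 in pair 1 and from -0.0050 to 0.0021 in the others. Values on the limits or exactly 0 (0.638%) were treated as missing.

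Values were converted to log2, centred on each array's median and given the sign of aged over young from the labelled dyes. Arrays of each orientation, then both orientations, were averaged within a pair, and probes with the same single symbol were averaged. The 21370 rows with 3 pair values were tested against 0 with limma 3.58.1 (lmFit, eBayes, two-sided; R 4.3.3) and Benjamini-Hochberg adjustment at 0.05 over all rows. Pair and dye effects were fitted on the 12 arrays. The fits were tested on simulated data. All 62 symbols matched RefSeq by gene ID. Spot intensities were not used here. The age test rests on 3 pair values, and their number limits its precision.

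The members and lists were chosen with earlier results of these data known. Genes named were those at an unadjusted p under 0.05, the smallest p up to 3 per role group, Rab3a, Rab5a, Rab7, Rab11a, Rab27a, Stx4a, Vamp2 and Vamp3 where measured (3 of 8), 6 other traffic genes, and 3 each from the pair and dye tests. Beyond this rule, Rab5c, Sec11a, Snx10 and Snx19, and the group of Rab3b, Rab19, Vamp7 and Copa, were picked after their values were seen. Alternatives covered centring, scaling, direction, missing values, labelling, dye, replicates, variance, probes and filters.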

Additional observations from a re-analysis of the deposited data

How the results depend on the processing

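In all 20 alternatives run, 0 members passed the adjusted threshold in limma. Among those that gave a value (2 gave none for Trappc2), the reading as already aged over young and Cy3 over Cy5 turned the signs of all 6 members at an unadjusted p under 0.05. No other alternative turned any of them. Several could not: a robust variance, named genes alone and the row filters leave a gene's mean as it is. So does the choice of a probe for genes with 1 probe. The count at an unadjusted p under 0.05 was 17 with that reading, 14 with aged RNA in Cy3 only (4 of the 6 among them), 5 with it in Cy5 only (0 of the 6), 16 of 197 genes with probes listing several genes counted, and 2 to 4 leaving out a replicate. With arrays scaled to one spread it was 6, as 4 lower and 2 higher. The members' median, 0.02 as reported, was -0.096 without centring (which moved the median of all rows by -0.115), 0.095 with the values taken as already aged over young, -0.099 with aged RNA in Cy3 only and -0.074 with probes listing several genes counted. Members below 0 numbered 44 without centring and 123 of 197 with those probes. Members that differed among pairs numbered 1 with scaled arrays and 0 to 2 leaving out a replicate, and members with a dye effect 0 to 16. Other traffic genes at an unadjusted p under 0.05 numbered 1 with scaled arrays and 0 to 4 leaving out a replicate. Of the 50 genes named by rule, 20 had the other sign with aged RNA in Cy5 only, 7 in Cy3 only and 8 without replicate 1; the causes were not tested. A fit of all 12 arrays in which the RNA pair was a random block (replicate block) called 284 rows, 0 of them members, with 7 members at an unadjusted p under 0.05. Its correlation within blocks was -0.014, so arrays of a pair were in effect counted as separate values. Without replicate 1 the replicate fit called 42 rows, 0 of them members. Leaving out the pair 1 array of widest spread, chosen after seeing the data, left the count at 6.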
